A study of Homo sapiens with 6 samples.

Results

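The genes described here are the DDX and DHX RNA helicases of A549 cells, an established human line that came from a lung adenocarcinoma. Members were every gene symbol beginning with DDX or DHX and a digit, leaving out DDX58, DDX60 and DDX60L, pseudogenes and antisense symbols. The pattern matched 57 of the 17787 symbols listed in any library, and 50 remained after 4 pseudogenes and the 3 named genes were left out. Messenger RNA was sequenced in 6 libraries: 3 labelled siNC with the genotype label wild type, the control group, and 3 labelled siFOXD3, named for a small interfering RNA against the forkhead transcription factor FOXD3. All libraries came from the same cell line, and no stable genetic change or other agent is given in the labels for either group. The sources used here do not give the siRNA sequence, its dose or the time to harvest.

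RNA helicases use ATP to open RNA duplexes or to strip proteins from RNA. DEAD-box proteins (DDX) mostly open short duplexes locally, while DEAH-box proteins (DHX) move along a strand and are often switched on by cofactors with a G-patch motif. Between them they act at nearly every step in the life of an RNA: transcription, splicing, export, ribosome assembly in the nucleolus, translation, decay and the sensing of viral RNA.

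Values are FPKM, in which fragment counts are divided by the length of the transcript and the size of the library, so levels of different genes can be set side by side per length. Sums of FPKM were 596623 to 618389 per library, and depth, estimated from the spacing of low values, was 7760000 to 8870000 fragments. FOXD3 itself lay at 0.152, 0.291 and 0.134 FPKM in siNC and was listed at 0, 0.0749 and 0 FPKM in siFOXD3. These values are worth a few fragments at most, so they are a weak check of the knockdown. All 8 epithelial and A549 markers were detected, and their summed level was 5900 to 6856 FPKM in siNC and 8737 to 8746 FPKM in siFOXD3. KRT8, KRT18, EPCAM, ALDH1A1, AKR1B10 and AKR1C1 were higher in every siFOXD3 library than in any siNC library. The groups of KRT19 overlapped. CDH1 was lower, at 50.2, 46.5 and 47.9 FPKM in siNC and 41.2, 40.9 and 41.9 FPKM in siFOXD3. The extraction protocol in the labels names retina, but none of 10 photoreceptor markers reached 1 FPKM in any library and SAG, GNAT1, RCVRN and OPN1SW were at 0 in all 6. Leukocyte markers (6 genes) summed to 4.57 to 6.27 FPKM in siNC and 1.53 to 2.30 FPKM in siFOXD3, and fibroblast markers (5 genes) to 3.57 to 4.49 and 2.94 to 3.48 FPKM; of these COL1A1, CD14 and LAPTM5 reached 1 FPKM, LAPTM5 only in siNC, and DCN and LUM were at 0. The part of these cell-type markers in the results below was not tested. Nothing in the labels says whether the 3 libraries of a group came from separate cultures; the p-values therefore speak to the spread among these libraries alone, and that spread may be technical.

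Most members were higher in siFOXD3. Testing required a level of 1 FPKM or more in 3 or more libraries, which 48 of the 50 members reached, and a gene was called at a limma, Benjamini-Hochberg adjusted p under 0.05 over all 12555 genes tested. Among these 48, 33 rose and 7 fell, and the remaining 8 were not called. Over all genes tested 65.9% were called, 27.2% higher and 38.7% lower. The median log2 fold change, on the log2(FPKM + 1) scale, was 0.36 over the members and -0.08 over all genes. Rises of at least 0.5 on that scale were called for 16 members, against 11.2% of all genes, and falls of that size for 2 members, against 20.7% of all genes. Every called member also had groups that did not overlap, as had DHX57, which was not called; 34 members were higher and 7 lower without overlap. Over all genes 70.7% had groups that did not overlap, 29.6% higher and 41.1% lower in siFOXD3. Most genes in this experiment changed, so a call on a single member is close to the background, and the counts by direction are the values to read.

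The summed FPKM of the 50 members was 1385, 1461 and 1416 in siNC and 1805, 1795 and 1788 in siFOXD3, a ratio of 1.26. Every siFOXD3 library lay above every siNC library. In bulk RNA, a change in the make-up of the cells and a change in the RNA of each cell cannot be told apart. As deposited, 41.3% of all called genes were higher; with median-of-ratios scaling, which moved the all-gene median from -0.08 to 0.02, the share was 52.9% (35.2% of tested genes higher and 31.3% lower), and with quantile normalization 51.9% (33.5% higher and 31.0% lower). The corresponding shares among called members were 82.5%, 86.0% and 85.0%, and relative to the all-gene median the members' median was 0.44, 0.45 and 0.40. The spread between replicates of a member was a median of 6.44% of its mean in siNC and 3.83% in siFOXD3.

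**Figure D1:**
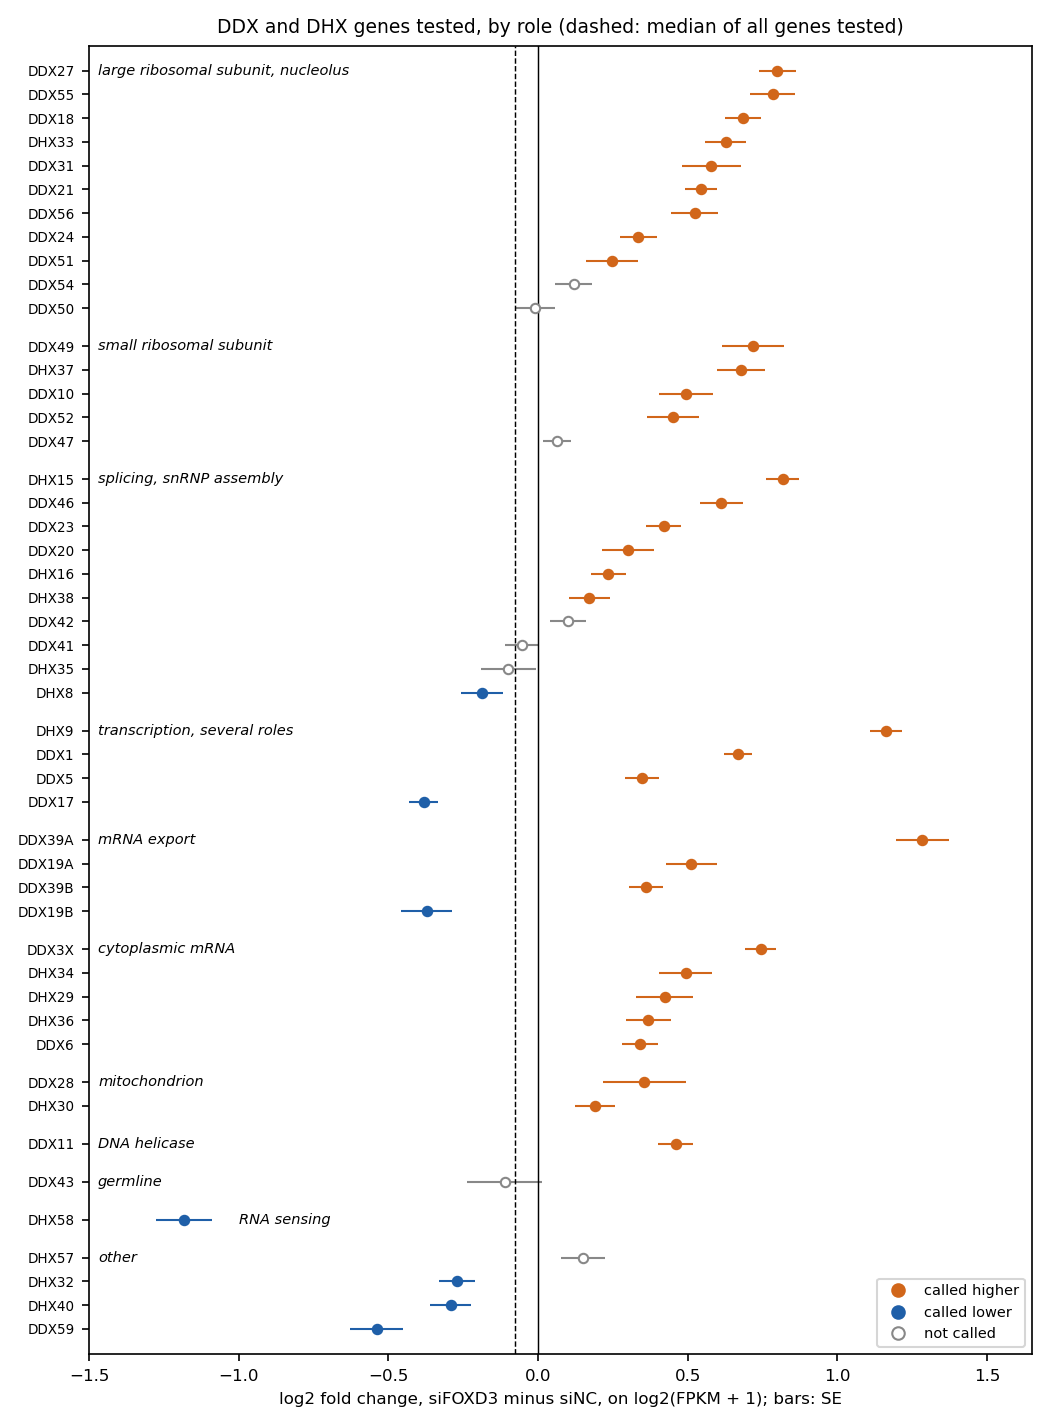
Log2 fold change of the 48 tested members (x axis, siFOXD3 minus siNC on log2(FPKM + 1), bars show the SE), in rows grouped by role; filled points were called and the dashed line is the median of all genes tested, -0.08. DDX39A and DHX9 stand furthest to the right and DHX58 furthest to the left, and all 16 ribosome assembly members lie to the right of the dashed line.

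**Figure D2:**
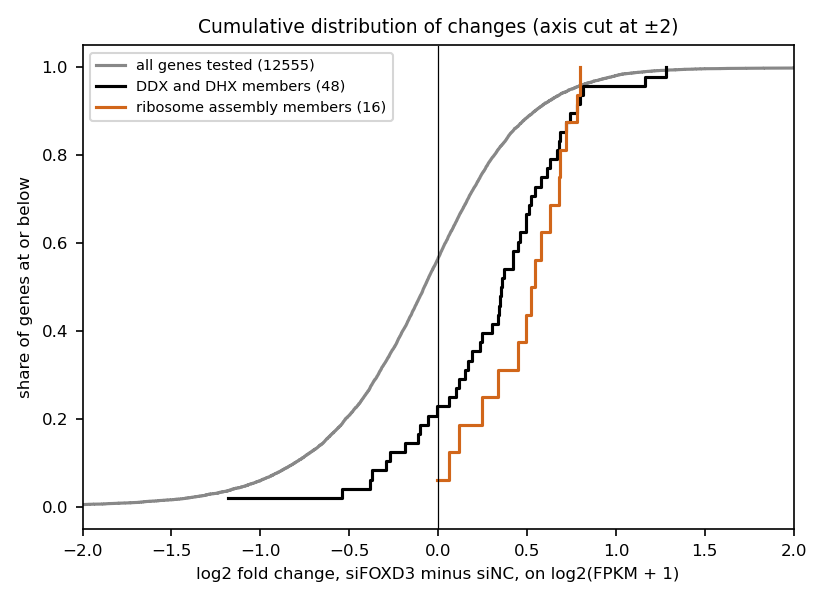
Cumulative share of genes (y axis) at or below a log2 fold change (x axis, siFOXD3 minus siNC) for all 12555 genes tested, the 48 tested members and the 16 members of ribosome assembly. The curve of the members lies to the right of the curve of all genes between about -0.5 and 0.7, with medians of 0.36 and -0.08, and that of ribosome assembly further right, with a median of 0.53.

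No helicase assigned here to ribosome assembly was called lower. These proteins work in the nucleolus, where they release small nucleolar RNAs from ribosomal RNA precursors and remodel the growing subunits. Of 11 members assigned to the large subunit or to nucleolar ribosomal RNA in general, 9 rose and none fell, and of 5 assigned to the small subunit 4 rose and none fell. The median change was 0.54 for the first and 0.49 for the second, against -0.08 over all genes. Their summed FPKM went from 379.7 ± 10.1 to 518.1 ± 4.43 (mean ± SD, n = 3 each). Over all genes tested 27.2% were called higher and 38.7% lower. Each member was given a single role, though some act in several, and roles were chosen with earlier results of these data known.

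DDX27, which acts with the PeBoW complex in the processing of large-subunit RNA, lay at 25.7, 26.9 and 23.1 FPKM in siNC and 45.3, 44.0 and 44.5 FPKM in siFOXD3. All siFOXD3 values were well above all siNC values, with a rise of 0.80 ± 0.06 in log2 units (SE; limma, Benjamini-Hochberg adjusted p = 2.18e-06). DDX55, a large-subunit assembly factor, lay at 6.62, 7.64 and 6.95 FPKM in siNC and 12.6, 13.5 and 12.6 FPKM in siFOXD3, a ratio of 1.82. DDX18, the human counterpart of yeast Has1, lay at 35.3, 40.8 and 39.2 FPKM and at 61.1, 62.1 and 63.7 FPKM, a ratio of 1.62. The groups were far apart for both. Among the less abundant, DHX33, linked to ribosomal RNA transcription, went from 8.44 ± 0.333 to 13.6 ± 0.629 FPKM (mean ± SD, n = 3 here and below) and DDX31, a nucleolar helicase, from 5.84 ± 0.877 to 9.15 ± 0.426 FPKM. DDX56 (log2 fold change 0.52), DDX24 (0.34) and DDX51 (0.25) rose by less.

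DDX21 was the most abundant member of ribosome assembly. It couples transcription of ribosomal RNA by RNA polymerase I with its processing, and it lay at 78.6, 88.6 and 84.8 FPKM in siNC and 122, 125 and 121 FPKM in siFOXD3. The groups did not overlap (change 0.54 ± 0.05, SE; limma, Benjamini-Hochberg adjusted p = 9.42e-06). Among the small-subunit factors, DDX49 lay at 11.5, 13.3 and 9.49 FPKM in siNC and 18.1, 19.8 and 20.1 FPKM in siFOXD3. DHX37, which acts on U3 small nucleolar RNA, went from 6.82 ± 0.531 to 11.5 ± 0.706 FPKM. DDX10 went from 4.76 ± 0.556 to 7.08 ± 0.223 FPKM and DDX52 from 8.36 ± 0.953 to 11.8 ± 0.668 FPKM. These 4 were called, each with a ratio between 1.41 and 1.69.

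DDX47, DDX50 and DDX54 were the 3 ribosome assembly members that were not called. DDX47, at 76.1 ± 2.67 FPKM in siNC was close to DDX21; its libraries were at 79.2, 74.5 and 74.7 FPKM in siNC and 80.9, 78.5 and 79.1 FPKM in siFOXD3, and the groups overlapped. It rose by 0.18 with median-of-ratios scaling (limma, Benjamini-Hochberg adjusted p = 0.0115). Of the 50-base windows of its longest coding transcript in GENCODE 29, 99.7% also lie in transcripts annotated to APOLD1, so its reads can be shared with that gene, which was at 4.54 and 4.67 FPKM in siNC and siFOXD3. DDX54 was at 22.6 and 24.6 FPKM and was called higher with median-of-ratios scaling (0.23, adjusted p = 0.0117) and without siNC replicate 1 (0.17, adjusted p = 0.0216). The call of DDX51 was lost without siNC replicate 2 or any 1 of the siFOXD3 replicates 1 to 3 (limma, Benjamini-Hochberg adjusted p = 0.0937, 0.053, 0.0749 and 0.074).

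Letters of 5 DNA motifs were looked for, on both strands, in the RefSeq promoters of the members (GRCh38.p14, 250 bases before to 50 after a start; 45 members matched and none was found for DDX18, DDX49, DDX52, DHX33 and DHX58). The E-box CACGTG, bound by MYC and its relatives, was in 10 of the 60 promoters of these 45 genes (16.7%), and in 4 of the 12 ribosome assembly members with a promoter. The 4 of 12 are genes with the E-box in any of their promoters, so they cannot be set against shares of single promoters. The E-box is in 7.26% of all 35116 promoters and 9.32% of those of tested genes. The ETS letters CCGGAAG were in 23 of the 60 (38.3%), against 10.3% of all promoters and 17.0% of those of tested genes. The NRF1 palindrome was in 2 (DDX10 and DDX11; 1.24% of all) and the interferon-stimulated response element core in 1 (DHX15; 3.57% of all), and the forkhead letters are given further on. DDX31 is shown as an example with both the ETS letters and the E-box before its start, in capitals (chr9:132669984-132670063, minus strand). Both were also found for other members, such as DDX21 (E-box at -31 and ETS letters at -60, in bases from a start). A match is a description of letters and not a bound site.
DDX31: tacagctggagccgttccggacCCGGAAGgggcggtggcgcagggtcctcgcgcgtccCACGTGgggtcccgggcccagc

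Splicing helicases rose in part. They drive the spliceosome from one arrangement to the next. Of the 10 assigned here, 6 were called higher and 1 lower, and the median change was 0.20, against -0.08 over all genes. Over all genes tested 65.9% were called, 27.2% higher and 38.7% lower, so the share called in either direction was near the background. DHX15, which takes the spliceosome apart and is recruited by several G-patch proteins, lay at 47.8, 54.5 and 51.6 FPKM in siNC and 92.2, 91.2 and 89.6 FPKM in siFOXD3. The siFOXD3 values were close together and all far above siNC, a rise of 0.82 ± 0.06 (SE; limma, Benjamini-Hochberg adjusted p = 8.95e-07). DDX46, needed for the stable binding of U2 to the branch site, lay at 18.4, 22.7 and 20.0 FPKM in siNC and 31.1, 31.7 and 31.8 FPKM in siFOXD3. DDX23, which loads the U5-containing tri-snRNP, went from 28.6 ± 1.57 to 38.6 ± 1.28 FPKM, and DDX20, a partner of the SMN protein in snRNP assembly, from 6.77 ± 0.578 to 8.57 ± 0.620 FPKM. DHX16, which activates the assembled spliceosome, rose by 0.23.

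The other splicing helicases had smaller changes. DHX38 went from 10.7 ± 0.638 to 12.1 ± 0.205 FPKM, and DHX8, which releases the spliced message, lay at 10.9 FPKM in each siNC library and at 9.36, 8.90 and 10.1 FPKM in siFOXD3. The groups of DHX8 did not overlap and its fall was 0.19 on the log2 scale; in these units the value was -0.08 with median-of-ratios scaling (limma, Benjamini-Hochberg adjusted p = 0.324) and -0.10 with quantile normalization (0.202), and with the replicate number as a block the adjusted p was 0.055. DHX8 also lost its call without siNC replicate 2 or 3 and without siFOXD3 replicate 1 or 2 (adjusted p = 0.0698, 0.0775, 0.0961 and 0.136). The call of DHX38 was lost with that block (adjusted p = 0.0734), without siNC replicate 2 or 3 (0.153 and 0.074) and without siFOXD3 replicate 1, 2 or 3 (0.117, 0.124 and 0.0847), and with no filter on low values (0.0557). DDX20 lost its call without siFOXD3 replicate 1 (adjusted p = 0.051). DDX41, DDX42 and DHX35 were not called: DDX41 was at 37.0 and 35.5 FPKM, DDX42 at 29.4 and 31.5 FPKM and DHX35 at 6.05 and 5.60 FPKM in siNC and siFOXD3, and DDX42 was called higher with median-of-ratios scaling (0.21, adjusted p = 0.00896).

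DDX39A and DHX9 had the largest rises among the members. DHX9, also called RNA helicase A, is a nuclear helicase that resolves RNA hairpins and RNA-DNA hybrids and bridges transcription factors to RNA polymerase II. It lay at 43.3, 48.2 and 43.2 FPKM in siNC and 100.2, 102.4 and 102.3 FPKM in siFOXD3. The siFOXD3 libraries were nearly equal and far above the highest siNC library (1.16 ± 0.05 in log2 units, SE; limma, Benjamini-Hochberg adjusted p = 8.51e-08). It moved from the 8th to the 5th most abundant member. DDX1, which serves the tRNA ligase complex and the repair of RNA-DNA hybrids, lay at 37.6, 38.4 and 38.6 FPKM in siNC and 61.6, 62.7 and 59.6 FPKM in siFOXD3, a ratio of 1.60.

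**Figure D3:**
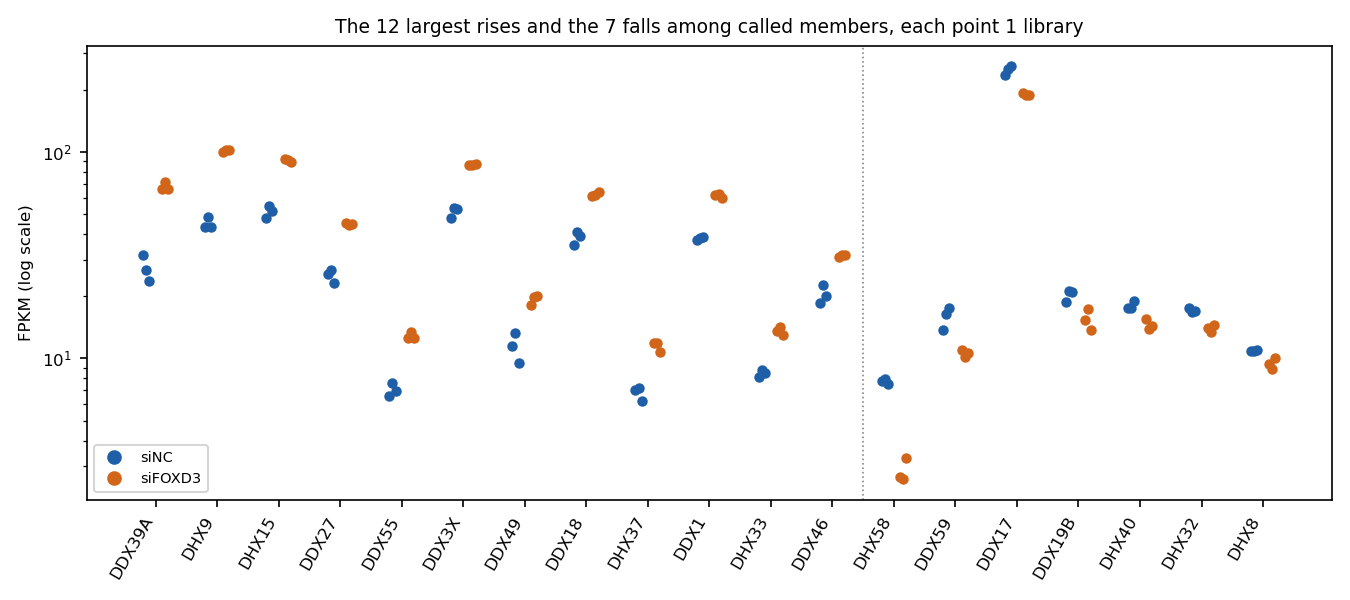
FPKM on a log scale (y axis) of the 12 called members with the largest rise and the 7 called members that fell (x axis, separated by the dotted line); each point is 1 library. For every gene shown the siNC and siFOXD3 points do not overlap, and DHX58 goes from 7.74 to 2.87 FPKM on average.

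DDX39A and DDX39B are close relatives that clamp onto messages and hand them to the export machinery as part of the TREX complex; DDX39B, also known as UAP56, is also an early splicing factor. DDX39A lay at 31.6, 26.8 and 23.8 FPKM in siNC and 66.2, 71.4 and 65.7 FPKM in siFOXD3, a ratio of 2.47. All 3 siFOXD3 values were above the highest siNC value (1.28 ± 0.09 in log2 units, SE; limma, Benjamini-Hochberg adjusted p = 9.3e-07). DDX39B lay at 122, 137 and 125 FPKM in siNC and 171, 157 and 164 FPKM in siFOXD3, which did not overlap, a ratio of 1.28. The ratio of DDX39A to DDX39B was 0.216 ± 0.0383 in siNC and 0.414 ± 0.0359 in siFOXD3, so the log2 ratio rose by 0.95 (two-sided exact permutation test, p = 0.1, the smallest that 3 libraries against 3 allow). DDX39B lies in the major histocompatibility region and had 8 rows per library, which were summed; the single rows ran from 6.27 to 30.9 FPKM. Almost all of its 50-base windows (95.2%) are also in the readthrough transcript ATP6V1G2-DDX39B, listed at 0.732 FPKM or less. DHX16 likewise had 8 rows, and with its highest row in place of the sum its rise was 0.18 and not called (adjusted p = 0.117).

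The promoters of this pair are shown because the genes rose to different extents; capitals mark the ETS letters, which are found before the start of DDX39B (chr6:31542004-31542083, minus strand). The 80 bases before the start of DDX39A (chr19:14419384-14419463, minus strand) hold none of the 5 motifs.
DDX39A: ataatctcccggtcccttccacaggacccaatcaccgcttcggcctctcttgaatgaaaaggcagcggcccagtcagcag
DDX39B: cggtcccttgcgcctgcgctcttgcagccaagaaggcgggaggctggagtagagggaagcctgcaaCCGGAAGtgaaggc

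DDX5 and DDX17 moved in opposite directions. These relatives, p68 and p72, act as coregulators of transcription, in splicing and in the processing of microRNA precursors, and they can bind each other. DDX17 was the most abundant member in both groups, at 234, 251 and 260 FPKM in siNC and 193, 189 and 189 FPKM in siFOXD3. All siFOXD3 values were lower, with a change of -0.38 ± 0.05 (SE; limma, Benjamini-Hochberg adjusted p = 6.07e-05), and its share of the members' summed FPKM went from 17.5% to 10.6%. DDX5 lay at 86.1, 98.6 and 93.6 FPKM in siNC and at 115.6, 116.3 and 122.7 FPKM in siFOXD3, again without overlap, with a change of 0.35 ± 0.06 (adjusted p = 0.000362). The ratio of DDX5 to DDX17 went from 0.373 ± 0.0166 to 0.621 ± 0.0261, a rise of 0.73 in the log2 ratio (two-sided exact permutation test, p = 0.1), while the sum of both was 341.2 ± 18.3 FPKM in siNC and 308.6 ± 3.13 FPKM in siFOXD3. The transcripts of DDX5 and DDX17 share no exact 50-base window.

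The forkhead letters TGTTTAC, searched on both strands, were in 4 of the 60 promoters (6.67%), those of DDX17, DHX8, DHX40 and DDX5, against 3.42% of all promoters and 2.58% of those of tested genes. Among members with a promoter, these letters were in 3 of the 6 called lower and 1 of the 29 called higher. These are counts of genes with the letters in any of their promoters, unlike the shares of single promoters just given. The shares with the letters among all genes called lower or higher were not computed. The E-box was in 2 of the 6 and 5 of the 29, and the ETS letters in 3 of the 6 and 16 of the 29. Over all genes tested 38.7% were called lower and 27.2% higher. Whether the letters bear on direction was not tested. Of the 4 members with the forkhead letters, DDX17, DHX8 and DHX40 were called lower, DHX8 without the stability noted above, and DDX5 higher. In DDX5 the letters lie after the start. Because FOXD3 is a forkhead factor, the stretches before the most upstream RefSeq start are printed for these 4, with the forkhead letters, the ETS letters and the E-box in capitals. They are chr17:64506639-64506768 (DDX5, minus strand), chr22:38506312-38506441 (DDX17, minus strand), chr17:43483895-43483974 (DHX8, plus strand) and chr17:59565530-59565609 (DHX40, plus strand). Binding of FOXD3 was not measured.
DDX5: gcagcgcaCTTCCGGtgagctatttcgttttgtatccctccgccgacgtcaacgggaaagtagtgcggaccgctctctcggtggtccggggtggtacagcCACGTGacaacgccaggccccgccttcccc
DDX17: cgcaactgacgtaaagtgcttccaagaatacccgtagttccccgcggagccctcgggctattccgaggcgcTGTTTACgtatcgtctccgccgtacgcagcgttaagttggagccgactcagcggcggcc
DHX8: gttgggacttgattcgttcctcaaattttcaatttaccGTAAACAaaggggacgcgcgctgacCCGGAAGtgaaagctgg
DHX40: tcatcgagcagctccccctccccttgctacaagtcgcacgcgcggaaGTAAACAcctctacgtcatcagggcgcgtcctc

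DDX19A and DDX19B also moved in opposite directions. Both encode the helicase that sits at the cytoplasmic face of the nuclear pore and strips export factors from messages, and the genes are neighbours with no other coding gene between them in RefSeq. DDX19A lay at 9.35, 7.43 and 8.25 FPKM in siNC and 12.4, 12.5 and 11.9 FPKM in siFOXD3. DDX19B lay at 18.8, 21.2 and 20.9 FPKM in siNC and 15.3, 17.4 and 13.8 FPKM in siFOXD3. Neither pair of groups overlapped, and the changes were 0.51 ± 0.08 and -0.37 ± 0.09 (SE; limma, Benjamini-Hochberg adjusted p = 0.000368 and 0.00325). The sum of both was 28.7 ± 0.501 FPKM in siNC and 27.8 ± 2.08 FPKM in siFOXD3, and these sums overlapped. The ratio of DDX19A to DDX19B went from 0.414 ± 0.0750 to 0.797 ± 0.0747 (0.95 in the log2 ratio, two-sided exact permutation test, p = 0.1). The longest coding transcripts of the pair share 707 exact 50-base windows, 24.0% of those of DDX19A and 21.2% of those of DDX19B, so the split of reads between them is uncertain. Another annotated gene, AC012184.2, holds 62.2% of the windows of DDX19A and 40.8% of those of DDX19B.

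DDX21 and DDX50, nucleolar relatives that are also neighbours, differed: DDX21 was called higher and DDX50 was not called. DDX50 lay at 26.0, 27.2 and 29.5 FPKM in siNC and at 28.0, 25.7 and 28.5 FPKM in siFOXD3, groups that overlapped. Its log2 fold change was -0.0088 as deposited, 0.10 with median-of-ratios scaling and 0.0035 with quantile normalization. The ratio of DDX21 to DDX50 went from 3.05 ± 0.192 to 4.49 ± 0.332 (0.56 in the log2 ratio, two-sided exact permutation test, p = 0.1). For DHX29, which helps the small ribosomal subunit to scan structured leaders, and its relative DHX57, the ratio went from 1.29 ± 0.201 to 1.57 ± 0.0436 (0.29 in the log2 ratio, two-sided exact permutation test, p = 0.1). Exact permutation tests were run on these 5 pairs, and the Benjamini-Hochberg adjusted p was 0.1 for each.

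**Figure D4:**
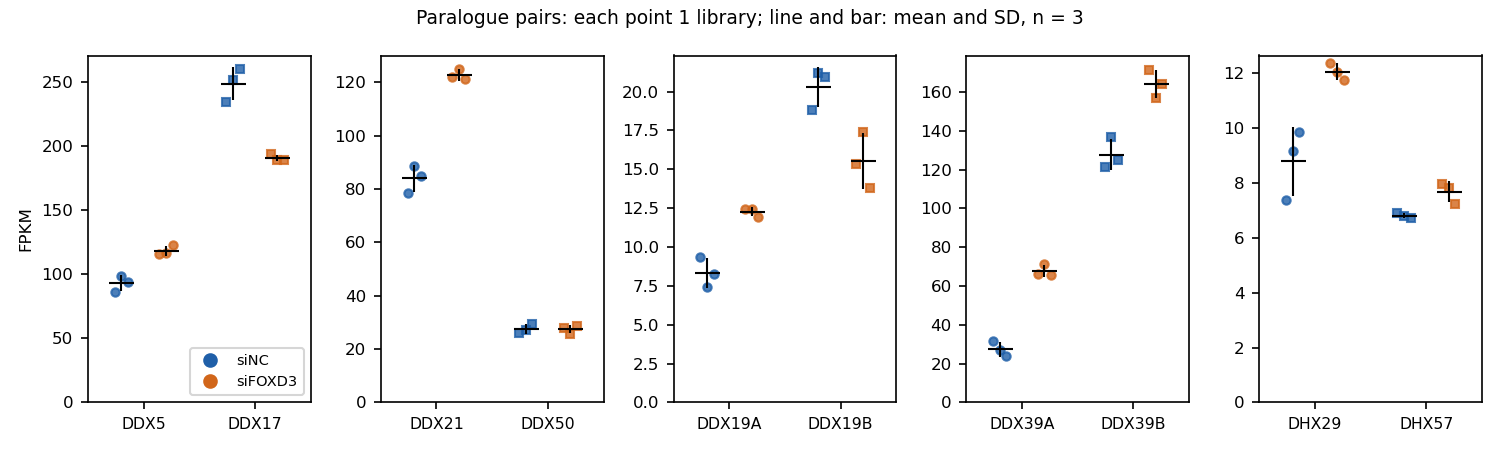
FPKM (y axis, from 0) of both genes of 5 paralogue pairs; each point is 1 library, and line and bar are the mean and SD over 3 libraries. DDX5 and DDX17, and DDX19A and DDX19B, change in opposite directions, while the groups of DDX50 overlap where DDX21 goes from 84.0 to 122.7 FPKM.

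All 5 helicases assigned to cytoplasmic messages rose, with a median of 0.42. Over all genes tested 27.2% were called higher and the median was -0.08. DDX3X, which promotes translation of messages with structured leaders and forms stress granules, lay at 48.1, 53.4 and 52.6 FPKM in siNC and 86.1, 85.9 and 87.7 FPKM in siFOXD3. The siFOXD3 libraries lay close to each other and far above siNC, a rise of 0.74 ± 0.05 (SE; limma, Benjamini-Hochberg adjusted p = 1.13e-06). DDX6, which represses messages and promotes their decapping in processing bodies, went from 17.5 ± 0.498 to 22.5 ± 1.07 FPKM. DHX36, which unwinds G-quadruplexes, went from 15.6 ± 1.55 to 20.3 ± 0.441 FPKM. DHX34, a factor of nonsense-mediated decay, went from 8.49 ± 0.841 to 12.4 ± 1.02 FPKM and DHX29 from 8.80 ± 1.26 to 12.1 ± 0.305 FPKM.

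The mitochondrial helicases DHX30 and DDX28, which assemble the mitochondrial ribosome, rose by 0.19 and 0.36. DHX30 was at 22.7 ± 1.71 and 26.0 ± 1.06 FPKM, and DDX28 at 2.36 ± 0.593 and 3.26 ± 0.296 FPKM in siNC and siFOXD3. Both calls were weak: DHX30 was not called without siNC replicate 2 or 3 (limma, Benjamini-Hochberg adjusted p = 0.0551 and 0.103) or without siFOXD3 replicate 1 or 2 (0.109 and 0.0652). DDX28 was not called without siNC replicate 3 (adjusted p = 0.148), where its change was 0.20, nor without siFOXD3 replicate 1 or 3 (0.114 and 0.11), nor with no filter on low values (0.0717). DDX11, a DNA helicase of sister chromatid cohesion, rose from 20.4 ± 1.05 to 28.4 ± 0.560 FPKM (log2 fold change 0.46, adjusted p = 6.3e-05). Of its windows 42.4% occur in other annotated genes, among them the pseudogene DDX12P, which was itself at 5.13 ± 0.626 and 7.40 ± 0.558 FPKM.

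DHX58 fell most. It encodes LGP2, a cytoplasmic relative of the sensors of viral RNA RIG-I and MDA5 that is induced by interferon. It lay at 7.78, 7.92 and 7.53 FPKM in siNC and 2.68, 2.61 and 3.30 FPKM in siFOXD3, groups far apart. The level was 0.370 times that of siNC (-1.18 ± 0.09 in log2 units, SE; limma, Benjamini-Hochberg adjusted p = 2.4e-06), and -0.98 with quantile normalization. Other interferon-induced helicases outside the rule fell as well. DDX60 fell by 1.09, DDX58, which encodes RIG-I, by 0.73 and IFIH1, which encodes MDA5, by 0.69 on the log2 scale. DDX60L, at 8.41 ± 1.36 and 6.89 ± 0.468 FPKM, was not called.

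DDX59, DHX40 and DHX32 also fell, beside DDX17, DDX19B and DHX8 described above. DDX59, DHX40, DHX32 and DHX57 were the 4 members assigned to no other role, with 3 called lower, 0 higher and a median of -0.28. DDX59, mutated in an oral-facial-digital syndrome, lay at 13.7, 16.4 and 17.5 FPKM in siNC and 11.0, 10.1 and 10.6 FPKM in siFOXD3, without overlap (change -0.54 ± 0.09 SE; limma, Benjamini-Hochberg adjusted p = 0.000341). DHX40 went from 18.0 ± 0.834 to 14.6 ± 0.865 FPKM and DHX32 from 17.1 ± 0.399 to 14.0 ± 0.544 FPKM. DHX40 shares 24.5% of its windows with its pseudogene DHX40P1 and a readthrough of it. DHX57 was at 6.82 ± 0.0890 and 7.68 ± 0.382 FPKM and was called higher with median-of-ratios scaling (0.25, adjusted p = 0.0114) and quantile normalization (0.30, adjusted p = 0.00584).

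Germline helicases were low. DDX43, a cancer-testis antigen, lay at 2.93, 3.27 and 2.20 FPKM in siNC and 2.31, 2.37 and 2.82 FPKM in siFOXD3, groups that overlapped. DDX25 was listed only in siNC replicate 2, at 0.0764 FPKM, and DDX53 only in siNC replicate 3, at 0.0626 FPKM. A single fragment on a transcript of 2000 bases is worth an estimated 0.0609 to 0.0696 FPKM in these libraries, so both are at about the limit of detection and were not tested. The 6 germ cell markers were at 0 in all libraries.

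The relatives and partners of the members were examined as lists, to be read against 27.2% of all tested genes called higher, 38.7% called lower and an all-gene median of -0.08. Of 17 tested RNA helicases with other names, 10 rose and 3 fell, with a median of 0.28. Within the EIF4A family, whose first members unwind leaders for translation initiation, EIF4A2 lay at 371, 400.1 and 417 FPKM in siNC and 188, 195 and 199 FPKM in siFOXD3, a fall of 1.02 on the log2 scale. EIF4A3, the helicase of the exon junction complex, rose from 51.7 ± 0.994 to 85.0 ± 2.46 FPKM, and DICER1, which cuts microRNA precursors, by 0.62. EIF4A1, added after its values were seen, went from 578.0 ± 2.24 to 680.2 ± 8.89 FPKM (0.23, and 0.07 with quantile normalization, where it was not called, limma, Benjamini-Hochberg adjusted p = 0.193).

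Of 20 G-patch proteins, some of which activate DEAH-box helicases, 9 rose and 1 fell, with a median of 0.16. The 10 called of 20 are a smaller share than the 65.9% called over all genes. GPATCH4, a nucleolar G-patch protein, lay at 5.51, 6.86 and 5.71 FPKM in siNC and 19.1, 18.4 and 18.9 FPKM in siFOXD3, a ratio of 3.12, and PINX1 (0.73) and CHERP (0.52) rose too. Of 14 genes for MIF4G-domain and other partners of the EIF4A and DDX19 helicases, 10 rose and 3 fell, with a median of 0.30. EIF4G2 rose from 134.4 ± 6.09 to 304.5 ± 0.679 FPKM, while PDCD4, an inhibitor of EIF4A, fell by 0.77 and EIF4B, its stimulator, by 0.76 on the log2 scale. Of 10 TREX subunits and partners of DDX39A and DDX39B, 6 rose and 1 fell. THOC4, the older symbol of the export adaptor ALYREF, lay at 51.4, 44.6 and 40.2 FPKM in siNC and 114.7, 130.3 and 113.6 FPKM in siFOXD3, a ratio of 2.63, THOC1 rose by 0.85 and THOC6 fell by 0.65 on the log2 scale. Of 6 DDX6 partners 1 rose (CNOT1, 0.25), 1 fell (PATL1, -0.29) and 4 were not called.

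**Figure D5:**
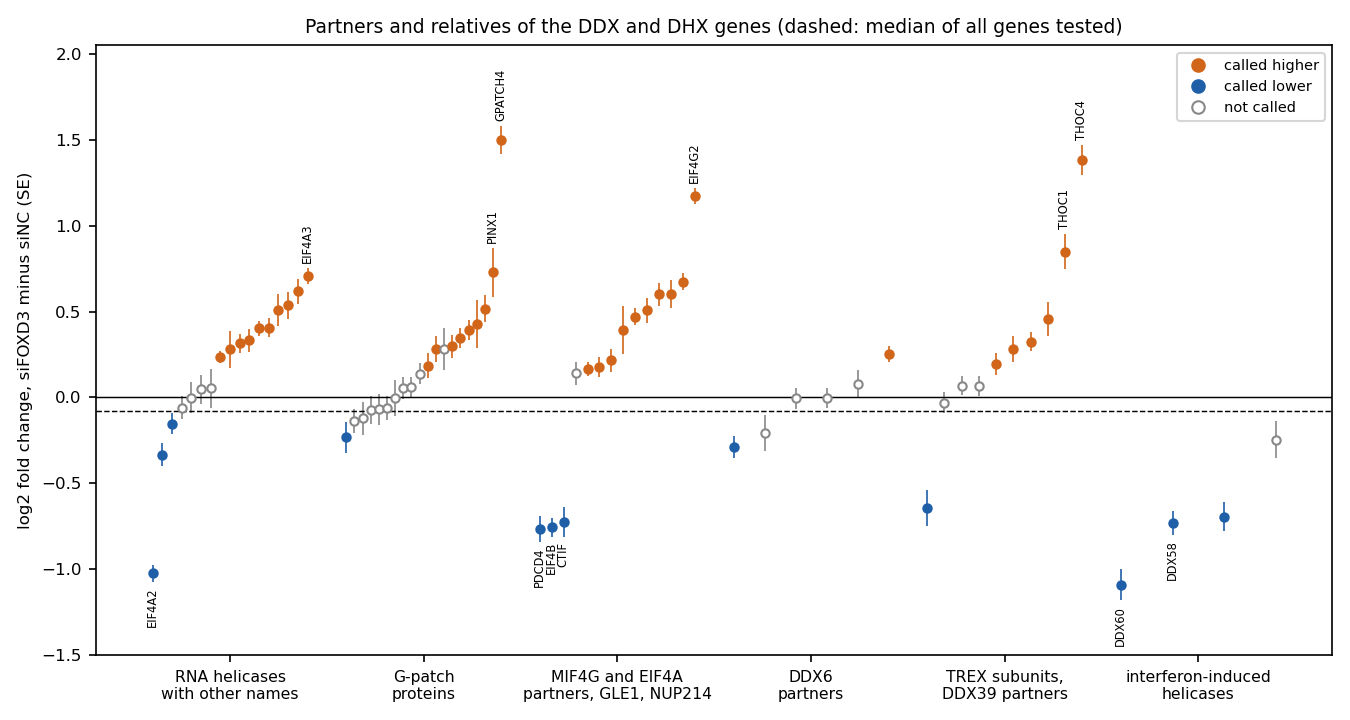
Log2 fold change (y axis, siFOXD3 minus siNC on log2(FPKM + 1), bars show the SE) of tested genes in 6 lists of relatives and partners (x axis); filled points were called, and genes that changed by 0.7 or more are named. GPATCH4, THOC4 and EIF4G2 rise by more than 1 on the log2 scale, and EIF4A2 and DDX60 fall by more than 1.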

How the data were processed

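Each library has a table that the authors deposited, in FPKM by gene symbol, per the file headers. The submitters' processing notes name TopHat, Cufflinks and build hg19; the sources used here do not give versions, annotation, read length or strand handling. Groups and replicate numbers came from the sample titles. Rows of 1 symbol were summed and an absent symbol was set to 0. FPKM are not counts, so log2(FPKM + 1) was fitted with limma 3.58.1 in R 4.3.3 (eBayes with trend and robust, group as the only term) over all genes with at least 1 FPKM in at least 3 libraries. Ratios of paralogues used a pseudocount of 0.1 FPKM and exact permutation tests (scipy 1.17.1). Fold changes on this scale understate the change of low genes. Depth is not in the files; it was estimated from genes with 1 GENCODE 29 transcript of 700 to 4000 bases and an assumed fragment of 150 bases. Other pseudocounts, filters, scalings, variance models and left-out libraries were tried as alternatives. The fit and the depth step were checked on simulated data. GENCODE and RefSeq are on another build than hg19, so coordinates are given only for printed promoters. Roles, partner lists and members were chosen with earlier results of these data known. Named were the 12 largest rises and the called falls, the 5 most abundant members, the paralogue pairs, members under 1 FPKM, and up to 3 called genes of each partner list, with the other members of each role.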

Additional observations from a re-analysis of the deposited data

How the results depend on the processing

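Across 15 alternatives (pseudocounts of 0.1 and 5 FPKM, no filter or one at 5 FPKM, median-of-ratios and quantile scaling, limma without trend and robust, the replicate block, the highest row of a symbol, and leaving out each library), the members called higher numbered 31 to 37 outside the left-out libraries and 28 to 34 when 1 library was left out, and those called lower 6 or 7. All genes called ranged from 7461 to 8394 when 1 library was left out. Of the 33 members called higher, 27 kept their call in every alternative that tested them, and of the 7 called lower 6 did. The 4 members that changed sign were not called in any of these fits: DDX41 (0.0599 with median-of-ratios scaling), DDX43 (0.16 with quantile normalization), DHX35 (0.00053 with median-of-ratios scaling and 0.0835 with quantile normalization) and DDX50 (0.10 and 0.0035 with the same scalings, and -0.0484 to 0.0390 with 1 library left out, above 0 without siNC replicate 3 or siFOXD3 replicate 2); the cause was not tested. Same-numbered libraries of the 2 groups had deviations correlated at 0.061, 0.163 and 0.115, and those of different number at -0.119 to 0.026. Each library correlated best with its own number. These values do not settle whether the numbers mark pairs, and the main fit did not take them as pairs. With the replicate block 32 members were called higher, 6 lower and 8172 genes in all. The log2 ratios of all 5 paralogue pairs kept their sign under the alternatives run for them.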
